A study of Mus musculus with 6 samples.

Results

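Notch signalling and the switch to secretory fate were followed in crypt cells through 10 genes, chosen by name for their roles in the pathway. They are the receptors Notch1 and Notch2, the ligands Dll1, Dll4 and Jag1, the Notch-induced genes Hes1 and Nrarp, and the transcription factors Atoh1, Spdef and Sox4. These are 10 of the 19178 genes in the count tables, and each had counts in all 6 collections. The cells came from freshly isolated crypts of the small intestine of untreated C57BL6 mice that were 10 weeks old. Knockout mice lacked Ptger4, the gene of the prostaglandin E2 receptor EP4, in the epithelium, and flox mice carried the floxed Ptger4 gene. Each genotype had 3 Drop-seq collections from 2 biological replicates. The codes in the titles were read as collections 1 and 2 of a genotype forming biological replicate 1 and collection 3 forming biological replicate 2, which the labels do not state outright. The sources used here do not give the Cre driver or the number of mice in a replicate, so p-values measure only the spread between these replicates.

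Notch receptors are cut when a ligand of the Delta or Jagged type on a neighbouring cell binds them, and the freed intracellular part joins the DNA-binding protein Rbpj to switch on genes such as Hes1. In the intestinal crypt, Hes1 protein represses Atoh1, so that cells receiving the signal stay progenitors or become absorptive, while cells that express Atoh1 become secretory and present ligand to their neighbours. Spdef acts after Atoh1 in goblet and Paneth cell maturation, Nrarp is a feedback inhibitor of the receptor's intracellular part, and Sox4 is expressed in progenitors and in enteroendocrine and tuft cell differentiation.

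Atoh1, Spdef, Dll1 and Dll4 were the genes found together most often relative to the number expected, and the 250 bases before their starts are printed for that reason, from the RefSeq promoter table (build GRCm38.p6), 5′ to 3′ on the strand of the gene. Capitals mark the E box CAGNTG, the 6-base site family bound by basic helix-loop-helix factors such as Atoh1, searched on both strands.
Atoh1, chr6:64728875-64729124, plus strand: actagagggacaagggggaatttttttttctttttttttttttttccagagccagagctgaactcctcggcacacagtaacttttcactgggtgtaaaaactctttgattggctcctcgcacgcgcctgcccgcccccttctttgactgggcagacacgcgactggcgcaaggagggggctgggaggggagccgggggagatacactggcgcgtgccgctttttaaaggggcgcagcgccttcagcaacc
Spdef, chr17:27728952-27729201, minus strand: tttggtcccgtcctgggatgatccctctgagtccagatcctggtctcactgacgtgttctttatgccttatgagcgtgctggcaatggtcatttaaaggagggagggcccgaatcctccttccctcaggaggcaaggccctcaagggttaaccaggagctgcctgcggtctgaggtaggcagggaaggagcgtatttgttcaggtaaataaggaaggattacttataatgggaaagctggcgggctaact
Dll1, chr17:15376933-15377182, minus strand: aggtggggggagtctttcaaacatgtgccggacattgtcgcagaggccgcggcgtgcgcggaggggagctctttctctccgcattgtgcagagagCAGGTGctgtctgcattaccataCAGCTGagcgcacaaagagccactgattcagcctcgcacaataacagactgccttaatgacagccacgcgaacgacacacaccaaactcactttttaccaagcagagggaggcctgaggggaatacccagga
Dll4, chr2:119325534-119325783, plus strand: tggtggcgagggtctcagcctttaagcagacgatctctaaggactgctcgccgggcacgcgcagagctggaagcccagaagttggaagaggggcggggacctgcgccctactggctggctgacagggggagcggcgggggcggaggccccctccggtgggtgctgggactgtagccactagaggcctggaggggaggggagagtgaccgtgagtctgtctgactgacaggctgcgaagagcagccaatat
The letters CAGNTG stood at 2 places in the Dll1 sequence, beginning 155 and 132 bases before the start, and at none in the Atoh1, Spdef and Dll4 sequences. They occur in 44.8% of 32851 promoters of the same length. The Rbpj core TGGGAA occurred once before Spdef, 22 bases from the start, and once before Sox4, 100 bases from the start, against 21.6% of all promoters. The table held 9 of the 10 genes, the other being Hes1; of the 2 entries for Dll1 the one nearest the annotated start is printed. A match describes letters in a window and is no evidence of binding.

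In all, 4890 of 13191 barcodes were kept, those with 300 or more genes detected and no more than 25% of counts from mitochondrial genes, with 703 to 981 cells and median counts of 1070 to 1254.5 per knockout collection, and 473 to 1053 cells and medians of 1235 to 1471.5 per flox collection. Ptger4 had 16.1 to 24.9 CPM (counts scaled to the same total in every sum of cells) in the epithelial cells of knockout collections and 11.5 to 15.4 CPM in those of flox collections. The deleted part is not stated, and a 3′ read may come from outside it, so Ptger4 counts leave the genotype labels unchecked. Collections shared cell barcodes within, but never between, 2 sets of 3 (set 1 with knockout 1, flox 1 and flox 2, set 2 with knockout 2, knockout 3 and flox 3), with 8 to 26 shared kept barcodes per pair. Xist counts were 1584 in knockout collection 3, 1457 in flox collection 3 and at most 11 in the others. Cells were clustered without the 10 genes and without the other genes of the pathway list, which gave 15 clusters, of which 12 were named from marker genes in 9 classes. The stem cell-like cluster had 10 of 18 stem cell markers enriched, and also 10 of 22 cycling markers. The cycling-like cluster had 14 of 22 cycling markers enriched, so a contrast of these classes is not one of resting against dividing cells. The secretory classes were goblet-like (704 cells), Paneth-like (156), enteroendocrine-like (94) and tuft-like (55), and 386 immune cells (B or plasma-like and T or NK-like) served as cells that should lack most of the 10 genes. Levels by class below are means ± SD over the 4 biological replicates of both genotypes, and, since clusters are not replicates, they carry no test. In 3′ counts a level is compared within a gene, not between genes.

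Among the named epithelial classes, the receptors had their highest levels from more than 5 counts in stem cell-like and cycling-like cells, which held 24.3% and 20.3% of Notch1 counts. Notch1 (chr2:26457903-26516663, minus strand, GRCm38), the main receptor of the crypt, had 345 counts, in 287 cells. Its level was 55.8 ± 10.6 CPM in stem cell-like cells, 35.5 ± 13.6 CPM in cycling-like cells, 19.1 ± 9.87 CPM in goblet-like cells and 17.1 ± 3.31 CPM in enterocyte-like cells (n = 4 each). After thinning each cell to 500 counts, Notch1 was found in 2.73%, 1.42%, 0.146% and 0.969% of cells of these classes, in the same order. The 31 goblet-like cells with a Notch1 count had a median of 9853 counts, and those without had 1671. The lowest replicate of the stem cell-like class, 42.2 CPM, stood above the highest enterocyte-like replicate, 22.0 CPM, and below the highest cycling-like one, 46.8 CPM. Notch2 (chr3:98013527-98150361, plus strand) had 54 counts in all, with 8.21 ± 5.33 CPM in cycling-like and 5.30 ± 3.94 CPM in stem cell-like cells against 0.997 ± 1.33 CPM in enterocyte-like cells. In T or NK-like cells Notch1 reached 41.1 CPM from 6 counts, so immune cells are no blank for Notch1.

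The ligands differed in where they were found. Dll1 (chr17:15367354-15376872, minus strand), a Delta ligand of early secretory cells, had 153 counts, 72 of them in goblet-like cells, which held 47.1% of Dll1 counts and 19.0% of all counts. Its level was 33.0 ± 8.45 CPM in goblet-like cells, and the stem cell-like, cycling-like and enterocyte-like classes stayed at or below 14.3 CPM in every replicate, under the lowest goblet-like replicate of 23.8 CPM. The 55 tuft-like cells, a chemosensory class, had 12 Dll1 counts, or 93.1 CPM when pooled, with a spread of 0 to 139 CPM over collections. Dll4 (chr2:119325784-119335962, plus strand), another Delta ligand, had 48 counts, 28 in goblet-like cells (12.8 ± 5.06 CPM) and 5 in enteroendocrine-like cells (28.0 CPM pooled), against 1 count in all 573 cycling-like cells. Jag1 (chr2:137081456-137116644, minus strand), a Jagged ligand, followed another order: 26 of its 88 counts were in cycling-like cells, at 11.5 ± 3.61 CPM, while goblet-like cells had 7.91 ± 5.28 CPM and enterocyte-like cells 6.09 ± 1.68 CPM, values that overlap. None of the 3 ligands had a count in the 386 immune cells, which allows up to 8.1 CPM for each (3 counts of their total).

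Hes1 (chr16:30064384-30067796, plus strand), the repressor that Notch switches on, was the most widely detected of the 10, with 3162 counts in 1428 cells. Its level was 361 ± 62.8 CPM in stem cell-like, 345 ± 61.5 CPM in cycling-like, 247 ± 44.7 CPM in goblet-like and 199 ± 48.9 CPM in enterocyte-like cells. The first pair did not differ beyond its spread, and neither did the goblet-like and enterocyte-like classes. Enterocyte-like cells were not alike: the cluster led by Fabp6 had 268 ± 64.5 CPM and the cluster led by Fabp1 and Apoa4 had 86.4 ± 53.8 CPM. The largest enterocyte-like cluster (566 cells, led by Reg3g) lay between them, at 183 ± 57.1 CPM. A Hes1 count was found in 34.7% of goblet-like cells, at a median of 1738.5 counts per cell, and in 0.658% of T or NK-like cells, at a median of 788.5. After thinning each cell to 500 counts the shares were 10.0% of goblet-like cells and 0 of 135 T or NK-like cells. B or plasma-like cells held 29 Hes1 counts at 129 CPM, which varied between 0 and 266 CPM over collections. Nrarp (chr2:25180758-25183339, plus strand) was found in cycling-like cells at 28.5 ± 5.78 CPM, with 34.8% of its counts and 19.1% of all counts, and every cycling-like replicate (22.2 CPM or more) stood above every stem cell-like replicate (19.0 CPM or less). Goblet-like cells had 8.01 ± 6.70 CPM of Nrarp.

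Atoh1 (chr6:64729125-64731245, plus strand), which commits crypt cells to secretory fate, was found mostly in goblet-like cells. Of its 160 counts 134 (83.8%) were there, at 61.5 ± 19.1 CPM, with a lowest replicate of 37.7 CPM, and stem cell-like cells had 1 count and enterocyte-like cells 6. Spdef (chr17:27714352-27728955, minus strand) had 154 of 186 counts (82.8%) in goblet-like cells, at 68.9 ± 27.0 CPM, and 12 counts in Paneth-like cells, at 46.6 ± 43.4 CPM. Enteroendocrine-like cells, which descend from Atoh1-expressing cells, held 3 Atoh1 counts and none of Spdef. The goblet-like class joined the clusters 5 (385 cells, led by Zg16, Tff3 and Fcgbp) and 7 (319 cells, led by Ccl9, Agr2 and Tpsg1). Atoh1 had 89.1 ± 55.2 CPM in cluster 5 and 38.9 ± 9.07 CPM in cluster 7, and Spdef 103 ± 44.5 CPM in cluster 5 and 44.8 ± 13.5 CPM in cluster 7. In the opposite direction, Notch1 had 1.54 ± 3.07 CPM in cluster 5 and 29.0 ± 9.10 CPM in cluster 7, and Sox4 31.0 ± 16.5 and 105 ± 20.1 CPM. Over replicates the ranges of Notch1 and Sox4 are well apart, while those of Atoh1 and Spdef overlap. Notch1 in cluster 5 rests on 2 counts, and over collections it reached 9.03 CPM there and fell to 0 in cluster 7. Thinned to 500 counts, Notch1 was found in 1 of 381 cells of cluster 5 and 0 of 306 of cluster 7, so its difference was not seen at equal depth. Sox4 was then found in 7 and 19 of these cells.

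Sox4 (chr13:28948919-28953713, minus strand) was shared between stem cells and rare secretory classes. Its level was 304 ± 151 CPM in enteroendocrine-like, 261 ± 153 CPM in tuft-like, 205 ± 48.0 CPM in stem cell-like and 117 ± 17.8 CPM in cycling-like cells. Enterocyte-like cells had 23.0 ± 6.31 CPM, and their highest replicate (28.8 CPM) lay below the lowest goblet-like replicate (53.3 CPM). A cluster of 771 unnamed cells, led by Rn7sk and other small nuclear and nucleolar RNAs and with a median of 781 counts, had the highest mean of the 15 clusters for Notch1 (80.6 ± 14.8 CPM), Hes1 (507 ± 181 CPM), Sox4 (359 ± 114 CPM) and Jag1 (15.3 ± 3.78 CPM). What these cells are was not settled by the markers.

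**Figure D1:**
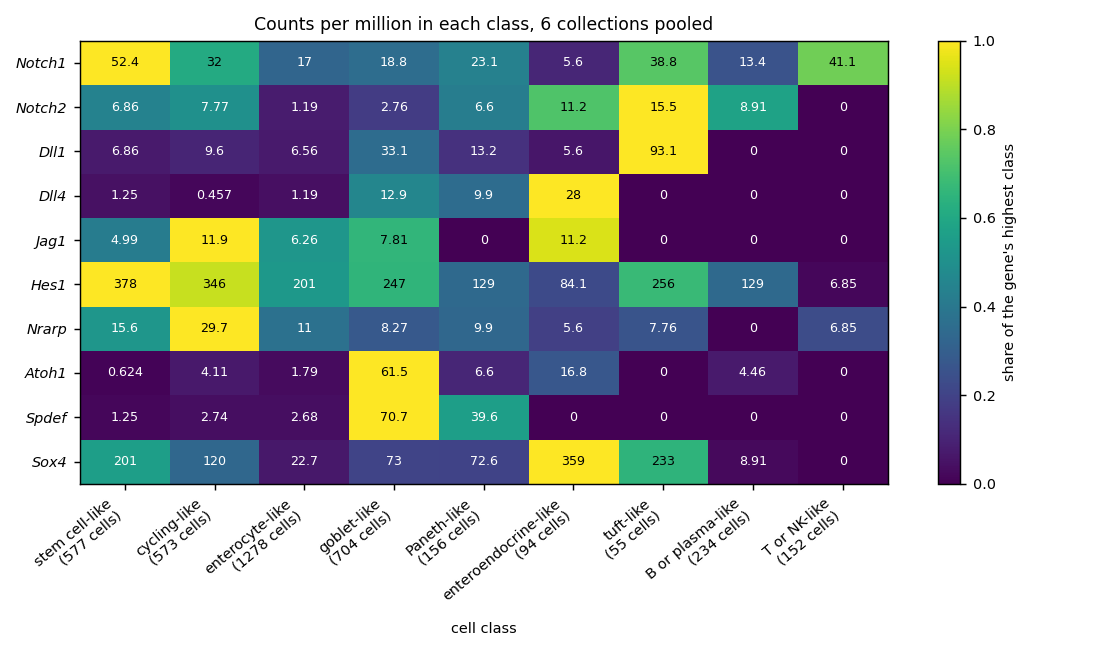
Level of each gene (rows) in each named class (columns) as CPM with the 6 collections pooled, printed in each cell and coloured as a share of the gene's highest class. Atoh1 and Spdef peak in goblet-like cells (61.5 and 70.7 CPM), Notch1 and Hes1 in stem cell-like cells (52.4 and 378 CPM), and Sox4 in enteroendocrine-like cells (359 CPM). Classes with few cells, such as tuft-like, rest on few counts.

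Genes with the most similar pattern over the 9 classes were sought by Pearson's r of log2(CPM + 10) among 6293 genes, as a description in which all points share the same libraries. For Atoh1 they were Creld2 and Ttc39a (r = 0.984 each), Gcnt3 (0.959), Tff3 (0.953) and Bcas1 (0.949), of which Tff3 encodes the goblet cell trefoil peptide. Atoh1 had 0 to 16.8 CPM outside goblet-like cells, so its r rests largely on that class. Creld2 was present in every class, from 48.0 CPM in T or NK-like to 142 CPM in goblet-like cells. For Hes1 they were Pgap2 (0.961), Tonsl (0.956), Mecr (0.955), Ndrg2 (0.953) and Sdc4 (0.951). For Sox4 they were Nedd4 (0.983), Zfp462 (0.971), Arhgef38 (0.968), Marcks (0.963) and Srek1 (0.963).

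Hes1 and Atoh1 were not mutually exclusive as detected RNAs. Of 4504 epithelial cells 1406 had a Hes1 count, 121 had an Atoh1 count, and 52 had both, so that 43.0% of Atoh1-positive cells carried Hes1. Among cells outside the epithelium, a Hes1 count was found in 0.658% of T or NK-like cells, 8.97% of B or plasma-like cells (median 679 counts) and 5.70% of all immune cells, beside 31.2% of epithelial cells (median 1350.5), and barcodes under 100 counts held Hes1 at 175 CPM. Co-detection through free RNA was not tested. The product of the shares within each collection gave 40.2 cells with both, a ratio of observed to expected of 1.29 (95% interval 0.967 to 1.70, for counting error only). Deeper cells detect more of every gene, and with the expected number summed over deciles of counts per cell it was 58.5, a ratio of 0.889 (0.664 to 1.17), with 4 of 6 collections below 1. The number with both was 3, 10 and 14 in knockout collections 1 to 3, against 4.05, 10.6 and 18.9 expected within deciles, and 17, 2 and 6 in flox collections 1 to 3, against 16.8, 1.56 and 6.59. Neither genotype departed from the expected number beyond counting error. In goblet-like cells alone, 40 cells had both against 45.8 expected within 5 bins of counts (0.874, 0.624 to 1.19). Thinned to 500 counts, 5 epithelial cells had both against 3.28 expected (1.525, 0.495 to 3.56). Among epithelial cells of at least 2000 counts, 47 had both against 45.8 expected (1.03, 0.754 to 1.365). Whether the ratio lay below or above 1 thus varied with how depth was handled. All these intervals include 1, so a departure from the expected number was not detectable at this depth.

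The level of Hes1 in Atoh1-positive epithelial cells was 302.5 ± 93.5 CPM and in Atoh1-negative ones 279 ± 47.3 CPM (n = 4). It was 269, 240, 260 and 442 CPM in Atoh1-positive cells of knockout replicates 1 and 2 and flox replicates 1 and 2, and 254, 332, 303 and 227 CPM in Atoh1-negative cells of the same replicates, so it was lower in positive cells in 2 of 4. The difference of 0.09 on the log2(CPM + 10) scale did not pass a two-sided exact test over sign flips (p = 0.875, smallest possible 0.13), and without barcodes over 20000 counts it was -0.09. Split the other way, which was chosen after the values were seen, goblet-like cells with a Hes1 count had 42.1 ± 13.7 CPM of Atoh1 and those without had 92.1 ± 28.4 CPM. Atoh1 was lower in the Hes1-positive cells in all 4 replicates, and also within cluster 5 and within cluster 7, each in 4 of 4. Lower Atoh1 was not particular to the Hes1 split. Pooled Atoh1 was also lower in goblet-like cells positive for Notch1 (30.06 against 69.35 CPM), Sox4 (43.4 against 70.4 CPM) and Nrarp (24.3 against 66.3 CPM). The same held for splits by Notch2, Dll1, Dll4 and Jag1, while split by Spdef it was higher in the positive cells (73.8 against 55.0 CPM). Spdef had 56.7 ± 21.1 CPM in Hes1-positive and 88.6 ± 38.7 CPM in Hes1-negative goblet-like cells, again lower in 4 of 4, but within cluster 7 it was higher in the positive cells in 2 of 4. With the same goblet-like cells split by Atoh1 instead, Hes1 had 311 ± 108 CPM in Atoh1-positive and 223 ± 27.1 CPM in Atoh1-negative cells, higher in the positive cells in 3 of 4 replicates (log2 difference 0.41, exact sign-flip p = 0.25). The splits thus go in opposite directions. Higher Hes1 was not particular to the Atoh1 split. Pooled Hes1 was also higher in goblet-like cells positive for Nrarp (438 against 222 CPM), Sox4 (347 against 198 CPM) and Spdef (286 against 226 CPM), but not for Dll4 (245 against 247 CPM). Hes1-positive goblet-like cells had a median of 3195 counts and Hes1-negative ones 1359, and the share of cells with an Atoh1 count was 16.4% and 12.6%, in the opposite direction to the level. The part of depth in the difference in level was not tested beyond a split at 2000 counts, where Atoh1 had 40.6 against 99.7 CPM in deeper cells and 52.2 against 82.6 CPM (from 5 and 28 counts) in shallower ones. In that split the share of cells with an Atoh1 count was 21.3% against 23.6% in deeper cells. In shallower ones it was 5.33% against 7.6%. Within each part the share was thus lower in Hes1-positive cells, in the same direction as the level.

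Detection of the secretory factors and Delta ligands went together. Within deciles of counts, Atoh1 and Spdef were found together in 36 epithelial cells against 7.90 expected (ratio 4.56, 3.19 to 6.31), with all 6 collections above 1. Dll1 and Atoh1 met in 21 cells (2.86, 1.77 to 4.38, 6 of 6 collections), Dll1 and Spdef in 23 (2.58, 1.63 to 3.87, 5 of 6) and Dll1 and Dll4 in 9 (4.03, 1.84 to 7.65, 5 of 6). A ligand, Dll1 or Dll4, was found in 25 of the 121 Atoh1-positive cells (20.7%). These cells had a median of 3350 counts, beside 1326 in Atoh1-negative ones, and 98 of them were goblet-like. Of all goblet-like cells, 9.09% had a Dll1 count and 3.98% a Dll4 count. The share in Atoh1-negative cells of like depth was not computed. Most of the pairs above share a class. Within goblet-like cells the ratio was 1.56 (1.09 to 2.15) for Atoh1 and Spdef, 1.37 (0.811 to 2.16) for Dll1 and Atoh1 and 0.868 (0.282 to 2.03) for Dll4 and Atoh1. For Atoh1 and Spdef it was 1.36 (0.863 to 2.04) within cluster 5 and 1.34 (0.714 to 2.29) within cluster 7, both including 1. Pairs among the receptors, the Notch-induced genes and Sox4 also had ratios above 1: Notch2 and Sox4 met in 27 cells (2.23, 1.47 to 3.24), Notch1 and Notch2 in 13 (2.32, 1.23 to 3.96), Nrarp and Sox4 in 60 (1.61, 1.23 to 2.07), Notch1 and Sox4 in 98 (1.55, 1.25 to 1.88), and Hes1 and Nrarp in 97 (1.30, 1.06 to 1.59). The interval included 1 for Notch1 and Nrarp (1.51, 0.995 to 2.20), Notch2 and Nrarp (2.18, 0.940 to 4.29) and Notch2 and Hes1 (1.24, 0.843 to 1.76). These ratios were not computed within a class, and the part of shared class in them was not tested. Notch1 and Dll4, a receptor and a ligand, met in 2 cells against 4.33 expected (0.461, 0.0559 to 1.67). In all, 45 pairs were compared and the intervals were not adjusted for that.

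**Figure D2:**
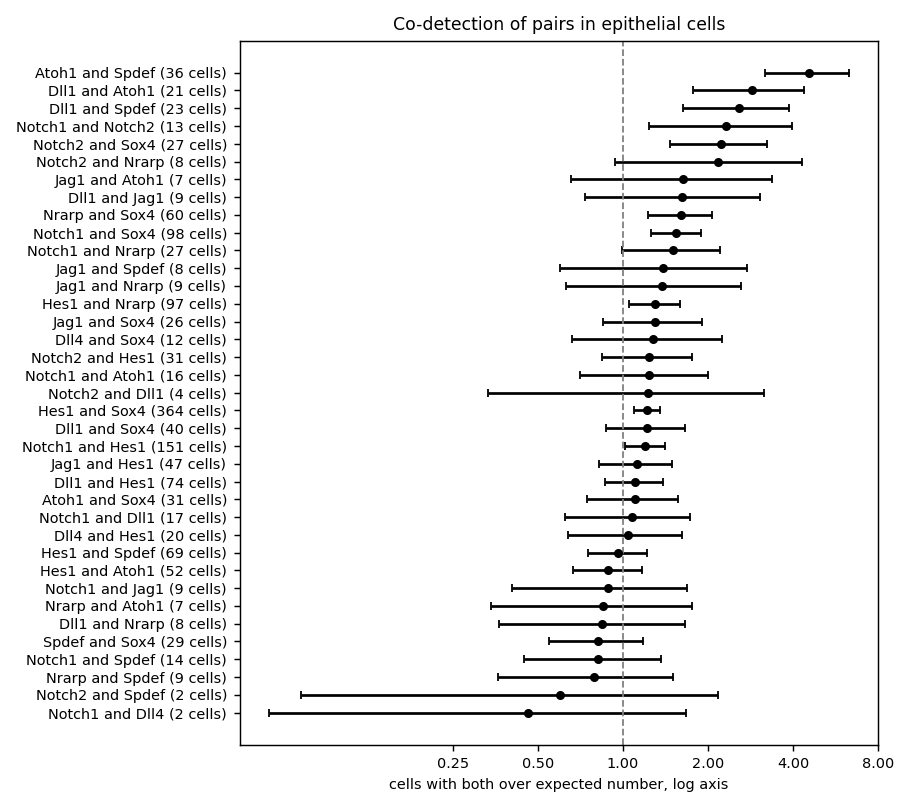
Number of epithelial cells with counts of both genes over the number expected from the shares within deciles of counts per cell and collection (log axis), for pairs with at least 3 cells expected, with 95% Poisson intervals of the observed number. Atoh1 and Spdef stand highest at 4.56, and Hes1 and Atoh1 stand at 0.889 with an interval that includes 1.

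Hes1 varied widely between collections of the same genotype. Over all kept cells, knockout collections 1 to 3 had 198, 310 and 318 CPM of it, against 357, 86.5 and 240 CPM for flox collections 1 to 3. Flox collection 2 was lowest, and it was the lowest collection in the stem cell-like (141 CPM), cycling-like (104 CPM), goblet-like (75.4 CPM) and enterocyte-like classes (45.7 CPM), with knockout collections at 251 to 425, 310 to 432, 182 to 238 and 133 to 263 CPM and the other flox collections at 281 to 514, 286 to 369, 305 to 309 and 161 to 267 CPM. Sox4 was lowest in flox collection 2 as well, at 61.3 CPM against 93.8 to 131 CPM in knockout collections and 112 to 133 CPM in the other flox collections. That collection kept 16.1% of its barcodes, the smallest share of the 6 (31.1% to 55.6% in knockout). Whether the recovery of cells has a part in these levels was not tested.

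**Figure D3:**
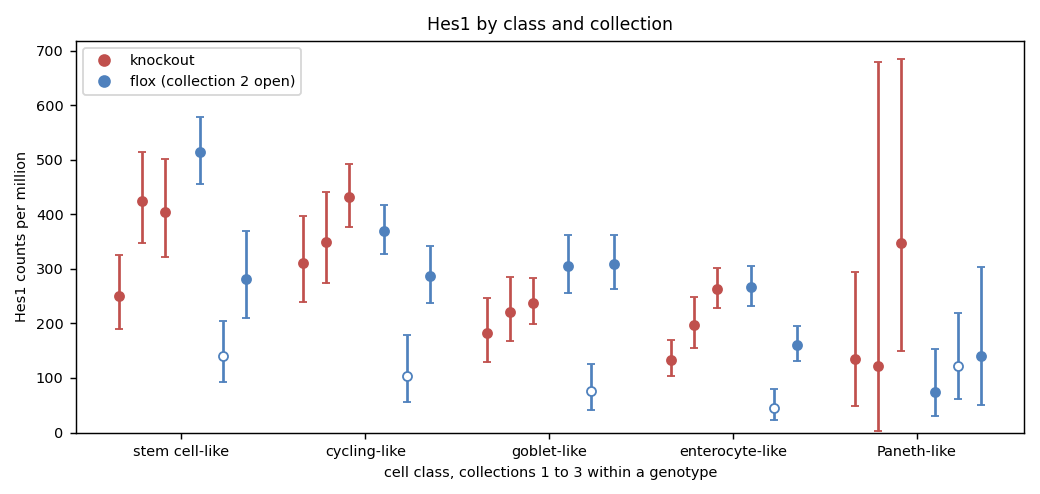
Hes1 CPM by class, with the 3 knockout collections left of the 3 flox collections in each class and 95% Poisson intervals of the count. Flox collection 2 (open symbols) is the lowest collection in 4 classes, the exception being Paneth-like cells, where it had 123 CPM.

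Collections labelled knockout were then set against flox collections. None of the 10 genes passed the test in all kept cells, where 0.00947% of 10555 genes (1 gene, the metallothionein Mt1) did (edgeR quasi-likelihood, adjusted p under 0.05, counts summed per biological replicate), and 235 genes, Nrarp alone of the 10 among them, had an unadjusted p under 0.05. In sums over all cells, fewer cells of a type and less RNA per cell cannot be told apart. Knockout collections 1 to 3 had 10.7, 12.5 and 12.0 CPM of Nrarp, against 21.9, 17.5 and 19.3 CPM for flox collections 1 to 3. It was the one gene of the 10 whose collections did not overlap, and it was lower in knockout. Of all genes tested, 7.01% had collections that did not overlap, in either direction. Its means were 11.8 ± 0.325 CPM in knockout and 20.04 ± 1.01 CPM in flox (SD, n = 2 each), with a log2 fold change of -0.73 (SE 0.28, edgeR adjusted p = 0.9996). It was -0.82 within barcode-sharing set 1 and -0.64 within set 2, each with 1 collection in an arm, and from -0.82 to -0.62 over 21 alternatives. The alternatives reuse the same collections, so their range is no independent support. Among the named classes Nrarp was highest in cycling-like cells. Its mean was higher in the unnamed clusters led by Rn7sk (33.8 ± 20.5 CPM) and by Snhg3 (40.1 ± 45.4 CPM, from 10 counts). The summed level of 22 cycling markers was 3563 to 4086 CPM in knockout and 3652 to 4559 CPM in flox collections. The part of any of these cells in the Nrarp difference was not tested.

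Knockout collections 1 to 3 had 8.71, 19.1 and 20.7 CPM of Atoh1, against 12.9, 8.75 and 10.8 CPM for flox collections 1 to 3. The groups overlap, since knockout collection 1 was the lowest of all 6. In the edgeR test it stood at 0.61 on the log2 scale (SE 0.32, adjusted p = 0.9996), with -0.29 within set 1 and 0.90 within set 2. The difference between the sets was 1.18 (SE 0.69) and did not pass the test of the interaction (edgeR adjusted p = 0.9991). These fits take single collections as samples, including collections of the same biological replicate, with 1 knockout and 2 flox collections in set 1 and 2 knockout and 1 flox in set 2, so each rests on an arm of 1. The 12 goblet markers summed to 17550 to 19400 CPM in knockout and 15580 to 26100 CPM in flox collections, and whether their share has a part in the Atoh1 value was not tested. Hes1 had a log2 fold change of 0.14 (SE 0.19), which became 0.78 without flox collection 1 and -0.10 within set 1. For the other genes the values were 0.69 (Dll4, SE 0.56), 0.34 (Notch2, SE 0.54), 0.27 (Dll1, SE 0.33), -0.23 (Jag1, SE 0.43), -0.07 (Sox4, SE 0.18), -0.05 (Spdef, SE 0.30) and -0.03 (Notch1, SE 0.25), all with overlapping collections and an adjusted p of 0.9996.

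**Figure D4:**
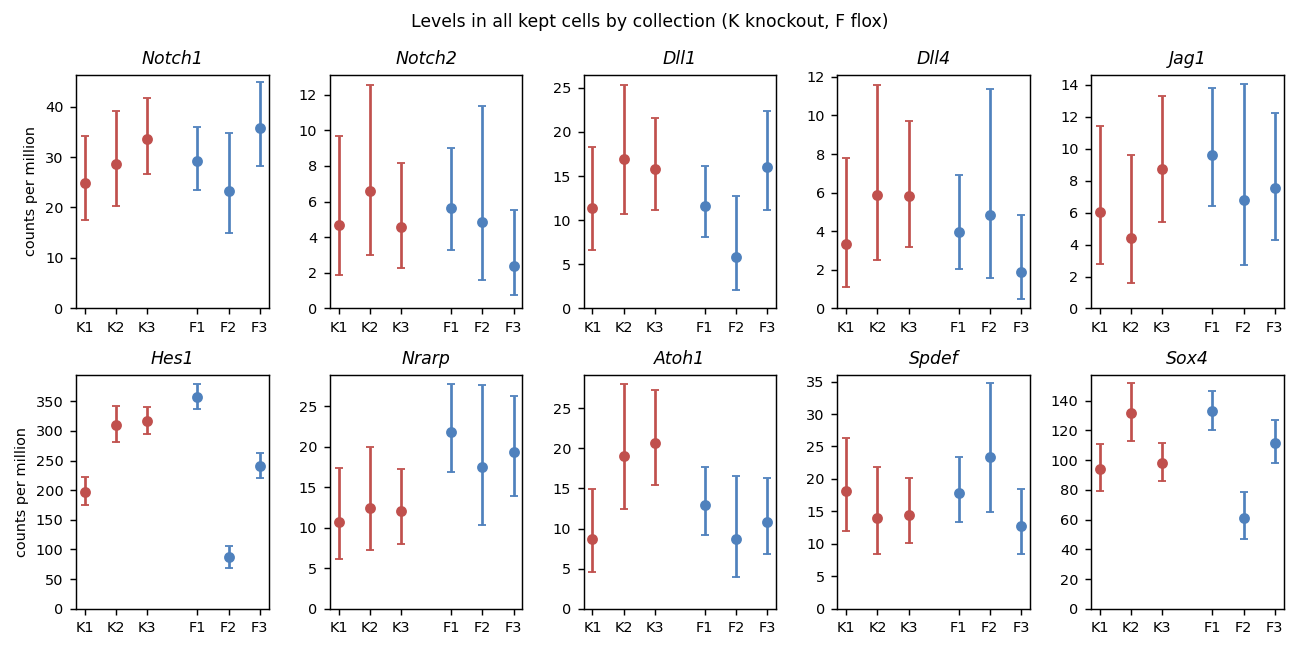
CPM of the 10 genes in all kept cells, with knockout collections (K1 to K3) left of flox collections (F1 to F3) and 95% Poisson intervals of the counts. The knockout collections of Nrarp, at 10.7 to 12.5 CPM, lie below the flox collections, at 17.5 to 21.9 CPM, and the other 9 genes overlap.

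**Figure D5:**
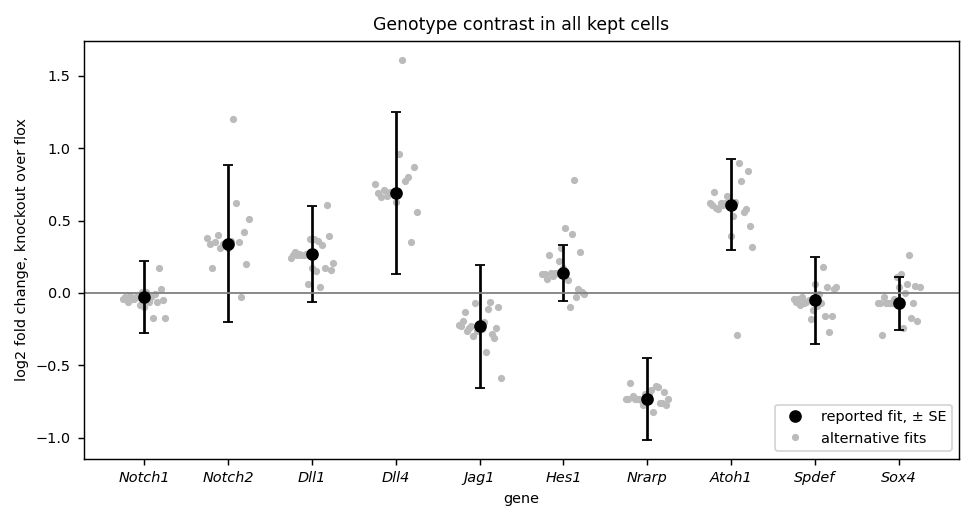
Log2 fold change of knockout over flox in all kept cells for each gene, with the reported fit and its standard error in black and the alternative fits in grey. Nrarp stays between -0.82 and -0.62, while the fits of Hes1, Atoh1, Spdef, Sox4, Notch1 and Notch2 lie on both sides of 0.

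Within classes the genes with enough counts were tested again, and none passed. In goblet-like cells 0.0157% of 6371 genes passed and 6.64% had collections that did not overlap, and 0 of 5 tested genes of the 10 did either. Atoh1 had 54.5, 85.9 and 81.2 CPM in the goblet-like cells of knockout collections 1 to 3, against 60.6, 43.1 and 37.7 CPM in those of flox collections 1 to 3. Only knockout collection 1 reached into the flox range, with a log2 fold change of 0.72 (SE 0.34, edgeR adjusted p = 0.9993), and between 0.47 and 0.93 in 9 alternatives. Spdef stood at -0.07 (SE 0.40), with 86.3, 59.7 and 63.2 CPM in knockout and 96.6, 118 and 37.7 CPM in flox collections. Hes1, at -0.29 (SE 0.26), Sox4, at -0.30 (SE 0.33), and Dll1, at 0.25 (SE 0.45), did not pass either.

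In cycling-like cells 0.0166% of 6015 genes passed and 8.2% had collections that did not overlap, and of the 4 tested genes Nrarp did not overlap. It had 24.6, 19.7 and 25.5 CPM in the cycling-like cells of knockout collections, against 33.0, 48.2 and 31.0 CPM in those of flox collections, with a log2 fold change of -0.45 (SE 0.44, edgeR adjusted p = 1.0) from 22 and 43 counts. Notch1 had a value of 0.93 there (SE 0.44, edgeR adjusted p = 1.0), with 59.1, 34.5 and 43.2 CPM in knockout and 13.7, 32.1 and 35.8 CPM in flox collections, which overlap. In stem cell-like cells (0.395% of 4813 genes passed, 10.2% did not overlap) Sox4 stood at -0.34 (SE 0.27), Notch1 at -0.14 (SE 0.41) and Hes1 at 0.07 (SE 0.24). In enterocyte-like cells (0.111% of 7182 genes passed, 8.94% did not overlap) Sox4 stood at -0.39 (SE 0.43), Notch1 at 0.31 (SE 0.47) and Hes1 at 0.24 (SE 0.24). In Paneth-like cells 0.0% of 740 genes passed and none of the 10 had enough counts to be tested.

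The share of cells with a count was compared after thinning every cell to 500 counts, which left out 175 knockout and 112 flox cells. Hes1 was found in 10.8% and 13.5% of cells in knockout replicates 1 and 2, against 12.0% and 8.34% in flox replicates 1 and 2. That is 12.1% ± 1.86 and 10.2% ± 2.61 (SD, n = 2 each), and a two-sided exact permutation test gave p = 0.667, where 0.33 is the smallest that 2 against 2 can reach. Atoh1 was found in 0.593% and 0.656% of thinned cells in knockout replicates, against 0.280% and 0.768% in flox replicates. Without thinning, Nrarp was found in 2.20% and 2.34% of knockout cells, against 4.39% and 3.996% of flox cells (exact permutation p = 0.33), while thinned to 500 counts it was found in 0.593% and 0.766% against 0.490% and 0.988%, with no lower share detectable at that depth. Thinned to 1000 counts, which left out 1036 knockout and 888 flox cells, it was found in 1.19% and 1.25% of knockout cells, against 2.21% and 2.59% of flox cells (exact permutation p = 0.33), lower in both knockout replicates. The secretory classes together made up 20.3% and 25.4% of epithelial cells in knockout replicates 1 and 2, against 22.1% and 22.9% in flox replicates 1 and 2, or 22.8% ± 3.61 and 22.5% ± 0.566 (SD, n = 2 each). These means differ by less than the spread between replicates. Paneth-like cells were 2.18%, 1.54% and 2.25% of epithelial cells in knockout collections 1 to 3, against 6.28%, 5.06% and 3.45% in flox collections 1 to 3, while the Paneth markers summed to 2269 to 5259 CPM in knockout and 3790 to 6076 CPM in flox collections, which overlap. Shares of clusters are given without a test.

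A wider list of 84 genes of the pathway, of which 80 are in the tables and 58 could be tested, was set beside the 10. None passed in either direction, 25 were above 0 and 33 below, and the median log2 fold change was -0.03, beside 0.002 over all 10555 genes tested. An unadjusted p under 0.05 was reached by 3 of 58 (5.17%), beside 2.23% of all genes. These were Nrarp, Mib1 and Neurod1. Mib1, the ubiquitin ligase that lets cells present Notch ligands, had 22.1, 14.7 and 22.4 CPM in knockout and 33.4, 16.5 and 34.4 CPM in flox collections, which overlap, with a value of -0.59 (SE 0.25, edgeR adjusted p = 0.9996). Neurod1, an enteroendocrine transcription factor, had 13.4, 38.9 and 21.1 CPM in knockout and 18.9, 15.6 and 4.24 CPM in flox collections, with a value of 0.98 (SE 0.41, edgeR adjusted p = 0.9996). The 16 enteroendocrine markers, Neurod1 among them, summed to 897 to 2102 CPM in knockout and 478 to 2105 CPM in flox collections, and their part in this value was not tested. Next in order were Lfng, which adds sugars to Notch receptors, at 0.75 (SE 0.45), with 7.88 to 9.54 CPM in knockout and 3.89 to 6.60 CPM in flox collections, and the corepressor Tle1 at -0.32 (SE 0.23), with 23.5 to 33.6 CPM in knockout and 34.4 to 44.4 CPM in flox collections. The collections did not overlap for 4 of the 58 genes (6.9%), beside 7.01% of all genes tested: Nrarp, Tle1 and Creb3l4 were lower and Lfng was higher in knockout. By role, the 13 tested genes of the Rbpj nuclear complex had 4 above and 9 below 0, the 15 of ligand and receptor processing 7 and 8, and the 13 secretory lineage factors 7 and 6.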

How the data were processed

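The authors deposited 6 tables of raw counts, with genes as rows and barcodes as columns. The submitters' processing notes name STAR 2.6 and the build mm10. The sources used here do not give how UMIs were collapsed or which barcodes were listed. Values are whole, with 1228337 to 3146909 per collection. The genes and lists were chosen with earlier results of these data known.

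Kept barcodes were clustered with scanpy 1.11.5 and leidenalg 0.10.2 (2000 variable genes, 30 principal components, 15 neighbours, resolution 1.0), leaving out the pathway list, and named when at least 3 markers of a class were enriched 1.5-fold and detected in 10% of cells, with 2 among the cluster's 10 leading genes or 0.5 of the list enriched. No doublet caller was run and no doublets were removed. Sums per biological replicate were tested with edgeR 4.0.16 (quasi-likelihood, TMM, filterByExpr at 10 counts, Benjamini-Hochberg over all genes tested, threshold 0.05), without blocking, on a script tested on simulated data. DESeq2 1.42.0 was an alternative. Intervals are 95% (Poisson or exact binomial) and cover counting error only, and a count of 0 allows up to 3 counts. Named genes are all 10, the pathway genes past the threshold, and the 3 smallest unadjusted p per direction. The barcode-sharing sets, the E box search and the splits of goblet-like cells were added after seeing the data. Gene positions are from GENCODE vM21, build GRCm38.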

Additional observations from a re-analysis of the deposited data

Results flagged for a closer look

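All 10 genes had counts in the 8301 barcodes that the filter removed (1384464 counts), which no comparison used, each above the 3 counts that a count of 0 allows. The numbers were 348 for Hes1, 176 for Sox4, 47 for Notch1, 18 for Jag1, 17 for Spdef, 15 for Nrarp, 14 for Atoh1, 11 for Notch2, 11 for Dll1 and 10 for Dll4. Hes1 stood there at 251 CPM (95% counting interval 226 to 279) and Sox4 at 127 CPM (109 to 147), beside 276 and 110 CPM in kept cells. Barcodes under 100 counts (3763 barcodes) held 41 Hes1 counts, 175 CPM, and 4 Atoh1 counts. The difference of the genotype contrast between the barcode-sharing sets passed the test for none of the 8 genes that could be tested (edgeR, adjusted p 0.9991 for each), with 0 at an unadjusted p under 0.05.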

How the results depend on the processing

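None of the 25 gene and class results passed the threshold in any of 331 fits, and 11 kept their direction in every alternative. The genes called in all kept cells numbered 35 without a filter on low counts, 22 within barcode-sharing set 1, 12 within set 2 and 3 with the replicate block, against 1. In classes, calls were 5 in stem cell-like cells and 2 in enterocyte-like cells with single collections as samples, 19 in enterocyte-like cells at clustering resolution 0.5, and 53 in enterocyte-like and 4 in goblet-like cells with the replicate block. The labels do not say that a number marks a shared litter, batch or day: deviations correlated at 0.322 over biological replicates, with 2 pairs, and at -0.121, 0.0423 and 0.361 over collections. Xist was high in replicate 2 and low in replicate 1 of both genotypes, so the number goes with a trait of the samples, and pairing was not established. The SDs over replicates and the test without blocking therefore take in whatever differs with that trait. Directions reversed in all kept cells for Notch1 (0.01 with single collections and 0.01 with the collection number as a block), Hes1 (-0.10 in set 1), Atoh1 (-0.29 in set 1), Spdef (0.06 with the set as a term, 0.18 in set 2) and Sox4 (0.11 with single collections, 0.04 with the set as a term, 0.13 with the collection number block, 0.06 in set 2). In classes they reversed for cycling-like Sox4 (0.13) and enterocyte-like Notch1 (-0.09) at resolution 0.5 and for goblet-like Spdef (0.04, replicate block). Resolution 0.5 gave no stem cell-like class. Differences in shares, in percentage points, moved to -0.393 (no thinning) and -0.674 (1000 counts) for Notch1, 0.420 and 0.213 for Dll4, -0.380 and -0.163 and (collections) -0.0227 for Jag1, 0.0389 (collections) for Nrarp, 0.758 (1000 counts) for Spdef and -0.0351 (no thinning) for Sox4. The ratio of Hes1 and Atoh1 co-detection moved to 0.889 (deciles) and 0.874 (goblet-like cells, 5 bins of counts), and the log2 difference of Hes1 in Atoh1-positive cells to -0.28 (thinned), -0.09 (barcodes over 20000 counts left out), -0.11 (shared barcodes left out) and, upward, 0.41 (goblet-like cells alone). The causes were not tested. Leaving out 1 collection at a time gave 1 to 33 calls in all kept cells (33 without flox 3, 15 without knockout 3, 3 without flox 2), 1 to 26 in stem cell-like, 1 to 11 in cycling-like, 1 to 28 in enterocyte-like, 0 to 23 in Paneth-like and 0 to 9 in goblet-like cells; leaving out a genotype's collection 3 leaves 1 biological replicate, assumed to vary like the others. Log2 fold changes then spanned -0.17 to 0.17 (Notch1), -0.03 to 0.62 (Notch2), -0.03 to 0.78 (Hes1), -0.27 to 0.04 (Spdef) and -0.19 to 0.26 (Sox4) in all kept cells, -0.36 to 0.05 (Notch1) and -0.14 to 0.84 (Hes1) in stem cell-like, -0.40 to 0.14 (Sox4) in cycling-like, -0.10 to 0.92 (Hes1) in enterocyte-like, and -0.02 to 0.74 (Dll1), -0.44 to 0.11 (Hes1) and -0.61 to 0.08 (Spdef) in goblet-like cells. Shares spanned -0.0741 to 0.509 (Notch1), -0.317 to 0.0265 (Dll4), -0.0831 to 0.0475 (Jag1), -0.146 to 0.190 (Nrarp), -0.126 to 0.358 (Atoh1) and -0.276 to 1.72 (Sox4) points, the Hes1 difference by Atoh1 -0.19 to 0.27, and stem cell-like Hes1 307 to 410 CPM.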

Other observations

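Hes1 was compared with 10 immediate-early genes across epithelial cells, a list written after the Hes1 levels were seen. For knockout collections 1 to 3 they summed to 3094, 3442 and 4445 CPM, and for flox collections 1 to 3 to 3921, 3853 and 4341 CPM, so flox collection 2, lowest for Hes1, was not lowest for the sum. Jund alone was lowest in flox collection 2, at 153 CPM, with 197, 324 and 286 CPM in knockout and 322 and 262 CPM in flox collections 1 and 3. The largest number of Hes1 counts in 1 cell was 63, and the 27 barcodes over 20000 counts held 11.1% of Hes1 counts, 2.08% of Dll4 counts and 8.79% of all counts.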
